A study of Mus musculus with 2 samples.

Results

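The genes described here are 10 antioxidant genes known as targets of the transcription factor NRF2, namely Gclc, Gclm, Slc7a11, Gsr, Prdx1, Txnrd1, Srxn1, Nqo1, Cat and Sqstm1. They were picked by symbol from the 26124 genes of the count matrices, 19604 of which had at least 1 unique molecular identifier (UMI, a tag that marks 1 captured transcript), and all 10 were found and had UMIs. Droplet-based single-cell RNA sequencing had been run on spleen cells of 1 wild-type control mouse and 1 mouse with sickle cell disease (SCD), both 12 to 16 weeks old and untreated. Red blood cells had been lysed and dendritic cells (DCs) enriched by removing other cells with magnetic beads, and the comparison asked how gene expression differed between the cell types of both spleens. Both mice were homozygous for the Hba tm1Paz allele, which removes the mouse α-globin genes. The wild-type control was also heterozygous for Hbb tm1Tow and hemizygous for the human transgene Tg(HBA-HBBs)41Paz, and did not sickle. The SCD mouse of the Berkeley model was homozygous for Hbb tm1Tow and for the transgene, and sickled. The control thus carried the sickle transgene too, and a difference between the libraries cannot be told apart from a difference between 1 pair of mice.

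NRF2, encoded by Nfe2l2, is a basic leucine zipper factor that the adaptor KEAP1 marks for degradation in unstressed cells. Oxidants and electrophiles block KEAP1, so that NRF2 enters the nucleus, pairs with small MAF proteins and binds antioxidant response elements near its target genes, while the heme sensor BACH1 occupies the same elements as a repressor. The targets supply glutathione, recycle the thioredoxin and peroxiredoxin cycle, reduce quinones and feed autophagy, and several of them are known to be induced by heme in macrophages that clear red blood cells.

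The promoters were searched for the core of the antioxidant response element, which is the sequence through which NRF2 acts. RefSeq promoter windows (GRCm38.p6) of 300 bases, from 250 before to 50 after a start site, were at hand for 8 of the 10 genes, and none for Gclc and Gsr. The core was spelled TGACNNNGC and searched on both strands. It was found in windows of 4 of the 8 genes, and in 3781 of all 27025 genes with a window (14.0%). The 4 matches are printed below with 10 bases on either side, because these genes are compared further on. All 4 lie on the plus strand of the genome as printed, and capitals mark the motif, which reads TGACNNNGC on the opposite strand.
Gclm, chr3:122245413-122245441: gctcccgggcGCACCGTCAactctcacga
Prdx1, chr4:116685456-116685484: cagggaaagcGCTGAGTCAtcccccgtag
Txnrd1, chr10:82859104-82859132: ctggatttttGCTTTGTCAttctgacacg
Srxn1, chr2:152105542-152105570: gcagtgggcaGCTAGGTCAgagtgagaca
The motif lay 134 to 126 bases before the start site in Gclm and 133 to 125 bases before it in Prdx1. It lay 92 to 84 bases before 1 of the start sites of Txnrd1, and 28 to 36 bases after that of Srxn1. A match of letters is a description of the window, and so is the lack of one in Nqo1, Slc7a11, Sqstm1 and Cat.

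Of the 10845 wild-type cells (97880318 UMIs) 9423 passed the study's filters, and of the 13447 SCD cells (189688217 UMIs) 10635 did. Hba-a1 was read at 915 counts per 1000000 UMIs (CPM) over the kept wild-type cells and 792 CPM over the kept SCD cells, although the labels give both mice as homozygous for the α-globin deletion. Hbb-bs was at 2293 and 20.8 CPM, lower in the mouse labelled homozygous for the Hbb deletion. The libraries shared 22 cell barcodes among the kept cells. Cell classes were rebuilt from marker genes and may differ from those of the study. There were 4363 wild-type and 7176 SCD neutrophils, 1078 and 1408 monocytes, 2656 and 750 conventional DCs (cDCs), 818 and 657 plasmacytoid DCs (pDCs), 284 and 156 red pulp macrophages (RPMs), 57 and 72 erythroid cells, and 21 and 289 B cells. Every listed marker of its own class was detected in both RPM groups. The DC label of the samples thus covers a mixture in which neutrophils were the largest class of both libraries.

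UMIs were summed per class and library and divided by all UMIs of that class, so each level below is 1 value per library in CPM. With 1 library per group no test was possible. The intervals are exact 95% intervals for counting error alone and do not cover variation between mice. A ratio is the SCD level over the wild-type level, and a gene was counted as higher or lower at a ratio of at least 1.5 or at most 1/1.5. The background is the share of all genes of the class at 20 CPM and 40 UMIs or more that met the same fold. The highest and lowest levels named below are those among the 6 major classes, from neutrophils to erythroid cells, and smaller subsets described further on went above some of them.

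Across the 10 genes the median ratio was 1.05 in neutrophils (medians of the interval bounds 0.791 to 1.28), 0.801 in monocytes (0.607 to 0.937), 1.21 in cDCs (0.883 to 1.33), 1.09 in pDCs (0.900 to 1.20), 1.29 in RPMs (0.759 to 1.69) and 1.99 in erythroid cells (1.30 to 2.55). In RPMs Nqo1 had no UMI in either library and entered the median at the floor of 3 UMIs, and without it the median of the other 9 genes was 1.13. The median over all genes of the same class was 0.825, 0.926, 0.9198, 0.979, 0.951 and 2.11. The antioxidant genes thus had a median above that of all genes in neutrophils, cDCs, pDCs and RPMs and below it in monocytes and erythroid cells. The median of all genes, however, covers only genes past the limits of CPM and UMIs given above, and that of the 10 genes has no such limit. Over the 7 of the 10 genes that passed these limits in monocytes the median was 0.943. This lies above the 0.926 of all genes, so the direction in monocytes rests on the low genes. The antioxidant genes did not move as 1 block in any class.

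In neutrophils 1 of the 10 genes, Gclm, was higher in SCD, against 8.85% of all genes, and 4 were lower (Slc7a11, Gsr, Srxn1 and Sqstm1), against 32.8% of all genes. None of the 10 was higher in monocytes, where 6.64% of all genes were, and 4 were lower (Gclc, Slc7a11, Srxn1 and Sqstm1), against 15.2%. Of these, Srxn1 stayed past the fold in only 3 and Sqstm1 in 8 of 14 alternatives, with ratios up to 0.948 and 0.812. In the monocytes the neutrophil marker list summed to 11079 CPM in wild-type and 27681 CPM in SCD. The cDC list summed to 3276 and 722 CPM and cell cycle genes to 675 and 2196 CPM, and their part in these ratios was not tested. In cDCs 2 were higher (Gclm and, on 7 and 4 UMIs, Nqo1) with a background of 4.80%, and Slc7a11 was lower with a background of 13.1%. Slc7a11 was also lower in pDCs, where 4.00% of all genes were, and 3 genes were higher (Txnrd1 and, on few UMIs, Nqo1 and Srxn1), against 4.26%. RPMs had 4 higher genes (Gclm, Prdx1, Txnrd1 and, on 3 and 7 UMIs, Srxn1) with a background of 9.19%, and Slc7a11 was lower on 9 and 2 UMIs with a background of 15.3%. In erythroid cells 6 genes were higher, against 65.5% of all genes, and 3 were lower, against 10.2%. Of the 10 genes, 6 passed the limit of 20 CPM and 40 UMIs in neutrophils, 7 in monocytes, 7 in cDCs, 6 in pDCs, 7 in RPMs and 8 in erythroid cells. The low ones are counted above all the same. With 10 genes, 1 gene is 10% of them, so a count of 1 cannot be set apart from backgrounds of this size.

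**Figure D1:**
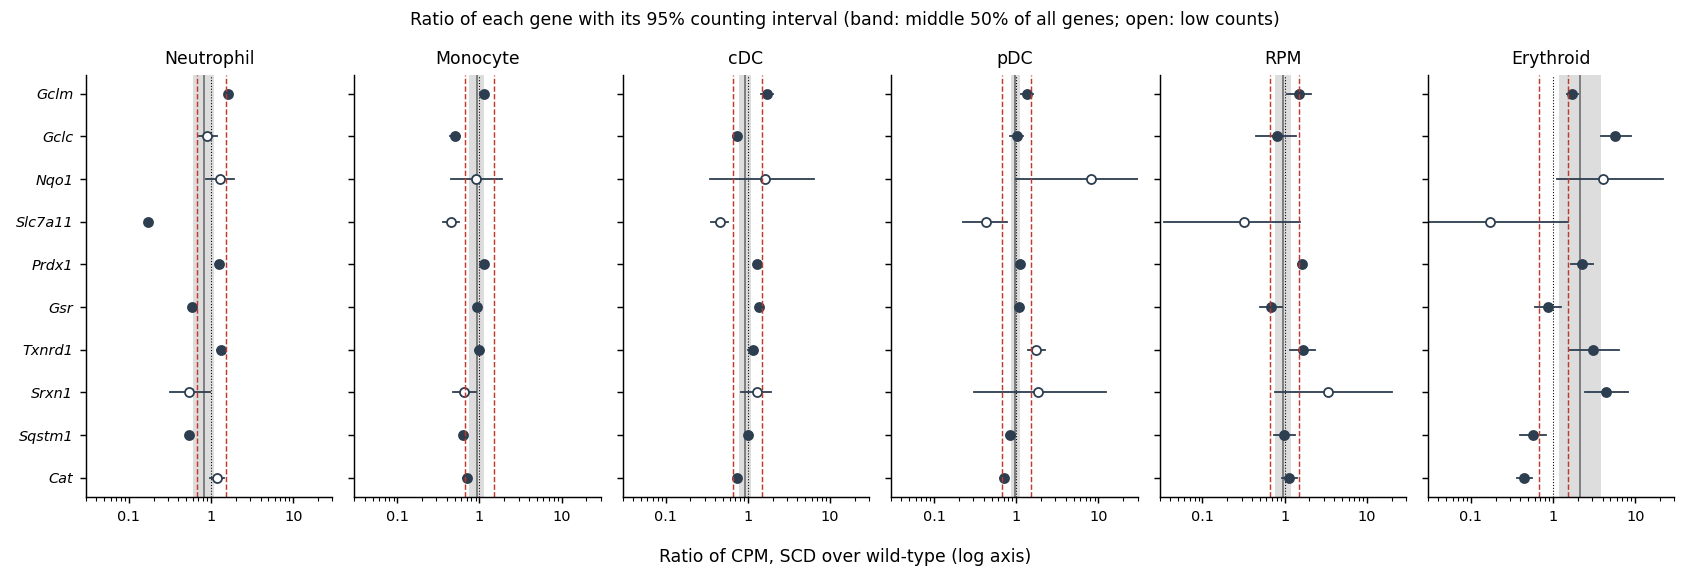
Ratio of each gene's level in SCD over wild-type (log axis, CPM over CPM) in 6 cell classes, with horizontal bars for the 95% counting interval, open circles for genes under 20 CPM or 40 UMIs, grey bands for the middle 50% of the ratios of all genes and red dashed lines at 1.5 and 1/1.5. Slc7a11 sits left of 1 in every class and farthest in neutrophils at 0.169, while Gclm sits right of 1 in every class, between 1.14 and 1.71; intervals that run past the axis are cut at its ends.

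The first step of glutathione synthesis is run by glutamate-cysteine ligase, a pair of the catalytic subunit Gclc (chr9:77754535-77794485) and the modifier subunit Gclm (chr3:122245557-122270732), which lowers the enzyme's need for glutamate. Gclm was read in neutrophils at 35.9 CPM in wild-type and 57.3 CPM in SCD, a ratio of 1.60 (1.46 to 1.75). In cDCs it was at 18.7 and 32.1 CPM (ratio 1.71, 1.46 to 2.00), and in RPMs at 122 and 183 CPM (1.501, 1.08 to 2.09). Monocytes gave 43.5 and 49.6 CPM (1.14, 1.02 to 1.28) and pDCs 29.6 and 40.03 CPM (1.35, 1.14 to 1.60). Gclm was therefore higher in SCD in each of these classes beyond counting error, though past 1.5-fold only in neutrophils, cDCs and RPMs. The monocyte ratio was 0.986 with no upper limit on genes per cell. The RPM ratio sits at the limit itself and lay between 1.21 and 1.58 under the alternative settings. Among all genes of the class, 97.0% had a smaller ratio than Gclm in cDCs, 93.1% in pDCs, 92.9% in neutrophils and 90.9% in RPMs. Erythroid cells had the highest level in both libraries, 588 and 1007 CPM, and RPMs followed. The lowest wild-type and SCD levels were both in cDCs, where the ratio was 1.04 (0.759 to 1.44) in cDC1, 1.76 (1.18 to 2.56) in cDC2 and 2.62 (1.66 to 4.02) in mature DCs.

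Within neutrophils the Gclm level differed between the 4 named stages, which leave out an unnamed sub-cluster of 163 wild-type and 1429 SCD cells. Promyelocyte-like cells stood at 92.4 CPM in wild-type (13 cells) and 103 CPM in SCD (164 cells), and dividing precursors at 52.5 and 59.3 CPM. Immature neutrophils had 34.6 and 44.1 CPM (1.28, 1.06 to 1.54), and mature neutrophils 28.7 and 60.3 CPM (2.10, 1.81 to 2.44). So the wild-type level was lower at each later stage, while SCD mature neutrophils were above SCD immature ones. The mature cells of both libraries sat in different sub-clusters. In a sub-cluster rich in Il1b, with 3688 wild-type and 804 SCD cells, Gclm was at 27.0 and 41.9 CPM (1.55, 1.17 to 2.02). In a sub-cluster poor in Il1b, with 126 and 1754 cells, it was at 54.9 and 64.6 CPM (1.18, 0.818 to 1.75), an interval that includes 1. In mature neutrophils, where Gclm was the 1 higher gene of the 10, 4.59% of all genes were higher.

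Gclc had another pattern. It was at 93.7 CPM in wild-type cDCs and 68.8 CPM in SCD cDCs (0.734, 0.667 to 0.805), and at 36.4 and 18.3 CPM in monocytes (0.503, 0.435 to 0.581). Levels were close in pDCs, at 27.8 and 28.1 CPM (1.01, 0.834 to 1.22), and lowest in neutrophils, at 5.10 and 4.61 CPM. In RPMs it was at 62.7 and 50.01 CPM, with an interval of the ratio from 0.444 to 1.39 that includes 1. The catalytic and the modifier subunit thus lay on opposite sides of 1 in cDCs and in neutrophils, monocytes and RPMs, with intervals of Gclc that include 1 in neutrophils and RPMs. Within cDC1, cDC2 and mature DCs the ratio of Gclc was above 1, like that of Gclm, though the intervals of Gclc in cDC1 and cDC2 include 1, as given below. Dividing DCs had 39 and 2 Gclc UMIs, 23.5 and 8.87 CPM. The monocytes of both libraries sat in different sub-clusters. In wild-type 376 were non-classical and 21 classical, against 48 and 900 in SCD, while sub-clusters with no name held 662 of 1078 monocytes in wild-type and 346 of 1408 in SCD. Gclc was at 48.7 CPM in wild-type and 102 CPM in SCD non-classical monocytes. In classical monocytes it was at 15.8 CPM (5 UMIs) in wild-type and 13.4 CPM in SCD. The make-up of the named cells differed between the libraries, and its part in the monocyte ratio was not tested.

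The cDC level of Gclc came largely from mature DCs, the migratory cells marked by Ccr7 and Fscn1. In them Gclc was at 450 CPM in wild-type and 608 CPM in SCD (1.35, 1.19 to 1.52), against 36.9 and 39.3 CPM in cDC1 (1.06, 0.803 to 1.42) and 18.4 and 19.5 CPM in cDC2 (1.06, 0.681 to 1.60). Mature DCs made up 593 of 2656 cDCs in wild-type and 90 of 750 in SCD, and the part of this in the cDC ratio was not tested. The cDC2 of wild-type lay mostly in 1 sub-cluster (1245 of 1263) and those of SCD mostly in another (180 of 189). In mature DCs 6 of the 10 genes were higher in SCD (Gclm, Prdx1, Gsr, Txnrd1, Srxn1 and Sqstm1), where 8.92% of all genes were, and none was lower, where 11.0% were. The median ratio of the 10 genes was 1.61 (1.25 to 2.19), or 1.57 without Nqo1, which had no more than 3 UMIs in either library, and that of all genes 0.988.

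These mature DCs held a small sub-cluster, and genes of this list separated it although none of them had been used for clustering. It was led by Gclc, with Ccl22, the ligand of CCR4, next, and took 79 of the 593 wild-type cells and 36 of the 90 SCD cells. Gclc was at 2527 CPM there in wild-type (2401 to 2658) and 1265 CPM in SCD (1126 to 1417), against 45.4 and 66.2 CPM in the larger sub-cluster of 503 and 49 cells. Sqstm1 was at 661 and 620 CPM in the small and 176 and 178 CPM in the large sub-cluster, with intervals that overlap between the libraries in both. Prdx1 was at 420 and 460 CPM in the small and 156 and 161 CPM in the large one, again with overlapping intervals. The higher pooled levels of Gclc, Sqstm1 and Prdx1 in SCD mature DCs were thus not seen beyond counting error within either of these sub-clusters, and Gclc was lower in SCD within the small one. Gclm was at 40.3 CPM (25.9 to 60.04) in wild-type and 97.0 CPM (61.5 to 146) in SCD in the small sub-cluster, and 17.9 and 20.7 CPM in the large one. The intervals of Gsr (121 and 198 CPM in the small and 63.3 and 78.6 CPM in the large sub-cluster), Txnrd1 and Srxn1 overlap between the libraries in both. Cat was lower in SCD in the large sub-cluster, at 138 CPM (125 to 153) in wild-type and 62.0 CPM (34.7 to 102) in SCD, and at 170 and 181 CPM with overlapping intervals in the small one. Slc7a11 had the reverse order, at 108 and 153 CPM in the large and 11.8 and 12.7 CPM in the small sub-cluster. With cells thinned to 1000 UMIs, 11.7% of wild-type and 28.1% of SCD mature DCs had a Gclc UMI (23.8% and 42.2% unthinned, median depths 5689 and 5631.5 UMIs). Neutrophils, as the background type, had 0.533% and 0.475% at median depths of 2450 and 6947.5 UMIs. The neutrophil marker list summed to 1114 CPM in wild-type and 6115 CPM in SCD mature DCs, with 15 of 17 genes higher, and its part in these levels was not tested.

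**Figure D2:**
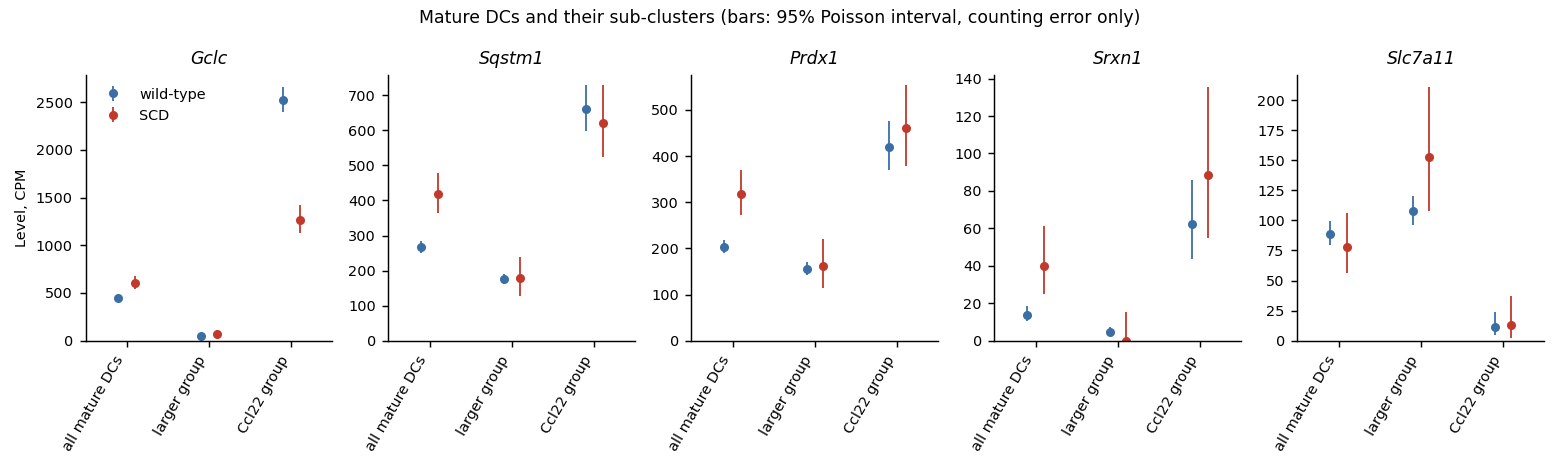
Levels in CPM (linear axis from 0) of 5 genes in all mature DCs, in their larger sub-cluster and in the small sub-cluster led by Gclc and Ccl22, with wild-type in blue, SCD in red and 95% Poisson intervals as bars. The libraries are apart over all mature DCs for Gclc, Sqstm1, Prdx1 and Srxn1, but for Sqstm1, Prdx1 and Srxn1 their intervals overlap within each sub-cluster, and Gclc was at 2527 CPM in wild-type and 1265 CPM in SCD in the small one.

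Slc7a11 (chr3:49892526-50443614, minus strand) encodes xCT, the transporter that exchanges glutamate for the cystine from which glutathione is built. It had the lowest ratio of the 10 genes in neutrophils, at 144 CPM in wild-type and 24.3 CPM in SCD (0.169, 0.158 to 0.181), and only 1.53% of all genes of the class had a smaller one. Levels were also lower in SCD in cDCs (23.1 and 10.5 CPM, 0.454, 0.357 to 0.571), monocytes (16.3 and 7.34 CPM, 0.451, 0.360 to 0.566) and pDCs (5.11 and 2.19 CPM, 0.429, 0.223 to 0.779). In cDCs most UMIs of wild-type were in mature DCs (326 of 531), where the levels were 89.0 and 78.1 CPM (0.877, 0.618 to 1.22). Among the major classes neutrophils had the highest level in both libraries. In cDCs, pDCs and monocytes it was under 20 CPM on average and did not pass the limit on counts. RPMs had 9 and 2 UMIs and erythroid cells 5 and 1, and the intervals of both ratios (0.0337 to 1.55 and 0.00364 to 1.54) include 1. In monocytes the ratio was 0.884 once sub-clusters led by genes of another class had been left out, an alternative chosen after seeing the data, and 1.004 with cells thinned to 1000 UMIs. In pDCs thinning left 3 UMIs or fewer in both libraries and no ratio. The neutrophil value kept its side of the fold under all 13 alternatives, between 0.168 and 0.248.

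The Slc7a11 level of neutrophils was highest at the mature stage, which held 2154 of the 2282 neutrophil UMIs in wild-type and 923 of 1457 in SCD. Wild-type cells had 2.98 CPM (1 UMI) in promyelocyte-like cells, 4.45 CPM in dividing precursors, 18.1 CPM in immature and 227 CPM in mature neutrophils. SCD cells had 1.74, 3.31, 9.36 and 102 CPM at the same stages. Both libraries therefore had their maximum in mature neutrophils, but these were 3814 of the 4363 wild-type and only 2558 of the 7176 SCD neutrophils. The ratio was 0.518 (0.396 to 0.686) in immature and 0.449 (0.416 to 0.486) in mature neutrophils. In the Il1b-rich sub-cluster Slc7a11 was at 234 and 198 CPM (0.843, 0.749 to 0.946), and in the Il1b-poor one at 115 and 80.1 CPM (0.696, 0.538 to 0.914). The difference was thus smaller at each finer level, from 0.169 over all neutrophils, and still beyond counting error in both sub-clusters. Each of these sub-clusters came mostly from 1 library, so that a sub-cluster and a library are hard to tell apart. The summed level of 12 immediate early genes was 6132 CPM in wild-type and 1725 CPM in SCD mature neutrophils, all 12 being lower in SCD, and its part in the ratio was not tested. The share of mature neutrophils with a Slc7a11 UMI was 16.8% and 9.56% after thinning to 1000 UMIs and 30.4% and 24.0% before, at median depths of 2341 and 3345 UMIs. In pDCs, as the background type, it was 0.244% and 0 after thinning, at median depths of 11217.5 and 9279 UMIs.

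**Figure D3:**
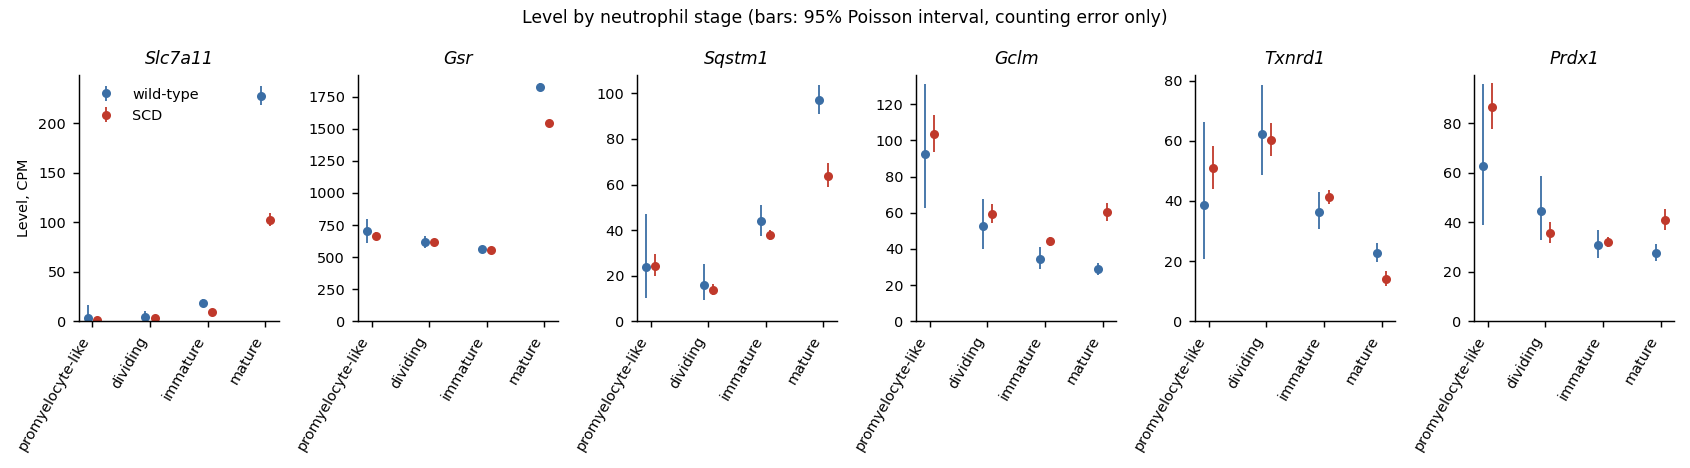
Level in CPM (linear axis from 0) of 6 genes in 4 neutrophil stages ordered by maturation, wild-type in blue and SCD in red, with 95% Poisson intervals as bars. Slc7a11 and Gsr reach their highest levels in mature neutrophils of both libraries, Slc7a11 at 227 and 102 CPM, and at the earlier stages Gsr lies within 553 to 700 CPM in both.

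Gsr (chr8:33652523-33698163) encodes glutathione reductase, which returns oxidised glutathione to its reduced form with NADPH. Among the major classes neutrophils had its highest level in both libraries, 1361 CPM in wild-type and 794 CPM in SCD (0.584, 0.574 to 0.593), followed by monocytes at 609 and 574 CPM (0.943, 0.915 to 0.973). The ratio was closer to 1 within the stages. Promyelocyte-like cells were at 700 and 666 CPM, dividing precursors at 617 and 615 CPM, and immature neutrophils at 563 and 553 CPM (0.983, 0.940 to 1.03). Mature neutrophils were at 1830 and 1546 CPM (0.845, 0.826 to 0.864), and their Il1b-rich and Il1b-poor sub-clusters had ratios of 0.958 (0.922 to 0.996) and 1.01 (0.946 to 1.09). The share of mature cells was lower in SCD, and its part in the pooled ratio was not tested. In the other classes Gsr was at 103 and 140 CPM in cDCs (1.36, 1.27 to 1.46), a direction that turned (0.923) when cells were named by their own marker score, 89.7 and 96.1 CPM in pDCs (1.07, 0.966 to 1.19), and 236 and 162 CPM in RPMs (0.686, 0.506 to 0.922). For cDCs the neutrophil marker list summed to 9758 CPM in wild-type and 35678 CPM in SCD. Without the sub-clusters led by genes of another class, among them a sub-cluster of 202 and 71 cells with 9 of 10 leading genes from the neutrophil list, the cDC ratio of Gsr was 1.08 and that of Gclm 1.73. Within subsets Gsr was at 35.3 and 42.1 CPM in cDC1 (1.19, 0.899 to 1.58), 42.8 and 37.6 CPM in cDC2 (0.878, 0.646 to 1.17) and 77.3 and 152 CPM in mature DCs (1.97, 1.52 to 2.54).

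Prdx1, Txnrd1 and Srxn1 form a cycle in which peroxiredoxin 1 reduces peroxides, thioredoxin reductase 1 regenerates the thioredoxin that restores it, and sulfiredoxin 1 rescues its overoxidised form. Prdx1 (chr4:116685544-116700822) was highest in RPMs among the major classes, at 1032 CPM in wild-type and 1688 CPM in SCD (1.64, 1.47 to 1.82). Monocytes followed with 794 and 910 CPM (1.15, 1.12 to 1.18), cDCs had 284 and 366 CPM (1.29, 1.23 to 1.35) and pDCs 304 and 338 CPM (1.11, 1.05 to 1.18). Neutrophils had the lowest level, 29.9 and 37.8 CPM (1.26, 1.14 to 1.40). Prdx1 was thus higher in SCD in each of these classes beyond counting error, and among them past 1.5-fold only in RPMs. The pDC ratio kept its direction in 12 of 13 alternatives (lowest 0.984). The RPM ratio stayed past the fold in 11 of 12 (lowest 1.42). Within cDCs the subsets differed, with 441 and 384 CPM in cDC1 (0.872, 0.802 to 0.948), 220 and 250 CPM in cDC2 (1.13, 1.01 to 1.27) and 204 and 318 CPM in mature DCs (1.56, 1.31 to 1.85). Dividing DCs, with 21 cells in SCD too few for a ratio, were at 479 and 439 CPM. The cDC1 made up 163 of 2656 cDCs in wild-type and 204 of 750 in SCD. After thinning to 1000 UMIs, 62.9% of wild-type and 82.4% of SCD RPMs had a Prdx1 UMI (79.9% and 92.9% before), with 79 and 20 shallower cells left out and median depths of 1327 and 1543.5 UMIs. In neutrophils the thinned shares were 2.83% and 3.46%.

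Txnrd1 (chr10:82833951-82897712) had its highest level among the major classes in RPMs too, at 107 CPM in wild-type and 179 CPM in SCD (1.66, 1.18 to 2.36). This ratio stayed past the fold in 9 of 12 alternatives (lowest 1.31). Txnrd1 was at 13.1 and 22.9 CPM in pDCs (1.75, 1.38 to 2.24), where it missed the limit of 20 CPM on average, and at 28.6 and 37.4 CPM in neutrophils (1.31, 1.18 to 1.45). Monocytes had 46.2 and 46.0 CPM (0.997, 0.892 to 1.11) and cDCs 32.9 and 37.7 CPM (1.14, 0.9986 to 1.31), so that neither differed beyond counting error. The neutrophil ratio changed direction within the mature stage, at 22.7 and 14.2 CPM (0.624, 0.498 to 0.781). Txnrd1, Slc7a11 and Sqstm1 were the 3 lower genes of the 10 in mature neutrophils, where 30.4% of all genes were lower. The intervals of Txnrd1 in both sub-clusters of mature neutrophils (0.626 to 1.31 and 0.397 to 1.77) include 1. Prdx1 in the same sub-clusters was higher in SCD, with ratios of 2.28 (1.81 to 2.87) and 1.83 (1.004 to 3.70). Srxn1 (chr2:152105516-152111376) was rare in the major classes other than erythroid cells. It had 21 and 43 UMIs in neutrophils, 1.32 and 0.716 CPM (0.542, 0.315 to 0.961), past the fold in 8 of 13 alternatives (up to 0.947). In mature neutrophils Srxn1 had the other direction, at 2.22 and 2.99 CPM (1.35). Its intervals in their Il1b-rich and Il1b-poor sub-clusters (0.688 to 4.81 and 0.187 to 6.79) include 1. Monocytes had 72 and 93 Srxn1 UMIs, 6.92 and 4.52 CPM (0.653, 0.475 to 0.900). RPMs had 3 and 7 UMIs, 4.95 and 16.7 CPM, with an interval from 0.768 to 20.2, and pDCs 3 and 4 UMIs. In mature DCs it had 51 and 21 UMIs (ratio 2.87, 1.64 to 4.86), with 37 of the 51 wild-type and all 21 SCD UMIs in the small sub-cluster. Its levels there were 62.2 CPM (43.8 to 85.7) in wild-type and 88.6 CPM (54.8 to 135) in SCD, with intervals that overlap.

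In RPMs, the macrophages that clear aged and damaged red blood cells, the gene for heme oxygenase Hmox1 was read at 5035 CPM in wild-type and 9303 CPM in SCD, a ratio of 1.85. The RPM marker list summed to 21888 and 26348 CPM. Lists of other cells differed as well, with the globin genes at 4547 and 1714 CPM, the cDC list at 6937 and 1198 CPM, the monocyte list at 4908 and 2927 CPM and the neutrophil list at 8088 and 11235 CPM. The levels of Prdx1 in cDCs, monocytes, neutrophils and erythroid cells of either library were below those in RPMs of the same library. What part these transcripts have in the RPM ratios was not tested. Cat and Sqstm1 did not share the higher level of Prdx1 and Txnrd1 in SCD RPMs, as given below.

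**Figure D4:**
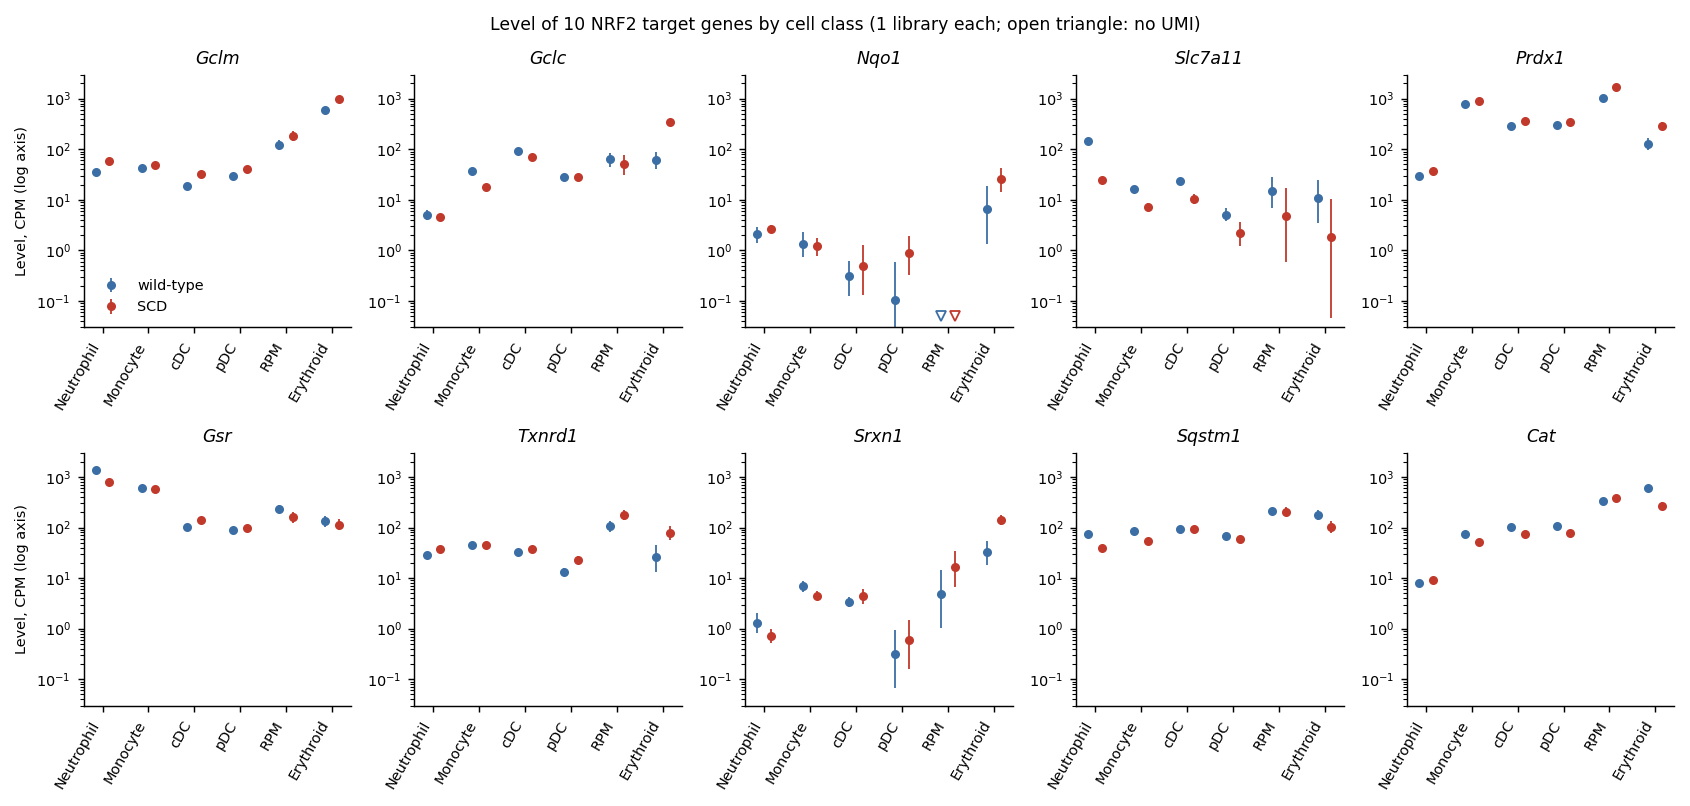
Level in CPM (log axis) of the 10 genes in 6 cell classes, with wild-type in blue, SCD in red and 95% Poisson intervals as bars; open triangles mark classes with no UMI, which have no place on a log axis. Of these 6 classes, those with the highest levels are erythroid cells for Gclm and Srxn1, RPMs for Prdx1, Txnrd1 and Sqstm1 and neutrophils for Slc7a11 and Gsr, in both libraries.

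Nqo1 (chr8:107388225-107403206, minus strand) encodes the quinone reductase that is widely read as a reporter of NRF2 activity, and it was scarce in these cells. Over all kept cells it had 63 UMIs in wild-type and 213 in SCD, 1.04 and 2.14 CPM (2.07, 1.55 to 2.78). Neutrophils had 33 and 160 of them, 2.08 and 2.66 CPM (1.28, 0.878 to 1.93), and monocytes 14 and 25, 1.35 and 1.21 CPM (0.902, 0.451 to 1.88). It had 7 and 4 UMIs in cDCs (1.60, 0.344 to 6.30), 1 and 6 in pDCs (8.24, 0.9993 to 379) and 3 and 14 in erythroid cells (4.01, 1.12 to 21.8). RPMs had 0 UMIs in both libraries, which allows up to 6.09 CPM in wild-type and 8.78 CPM in SCD by the exact interval. In immature neutrophils Nqo1 was the 1 gene above the fold, on 3 and 62 UMIs (2.67, 0.871 to 13.3), where 1.48% of all genes were higher, and Slc7a11 was the 1 below it, where 1.34% were lower. Among the 6 major classes a difference of Nqo1 was not detectable at this depth in any but the erythroid cells, where the ratio was below 1 with no upper limit on genes per cell (0.679) and thinned cells had no Nqo1 UMI in either library.

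Cat (chr2:103453849-103485160, minus strand) encodes catalase, which splits hydrogen peroxide. It was at 340 CPM in wild-type and 386 CPM in SCD RPMs (1.13, 0.918 to 1.40), so that the libraries did not differ beyond counting error. It was lower in SCD in pDCs (110 and 76.7 CPM, 0.700, 0.629 to 0.778), monocytes (74.6 and 52.3 CPM, 0.701, 0.638 to 0.769) and cDCs (101 and 75.5 CPM, 0.745, 0.680 to 0.814), none of them past the fold. In pDCs only 5.55% of all genes had a smaller ratio. Neutrophils had 7.86 and 9.32 CPM, the lowest level of Cat in both libraries. The pDC markers summed to 17331 CPM in wild-type and 14453 CPM in SCD and neutrophil markers to 5620 and 33489 CPM in the pDCs, and their part in the ratio was not tested.

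Sqstm1 (chr11:50199366-50210827, minus strand) encodes p62, an autophagy receptor that also binds KEAP1. RPMs had its highest level among the major classes, 208 CPM in wild-type and 207 CPM in SCD (0.996, 0.749 to 1.32), below the 266 and 419 CPM of mature DCs, and cDCs 92.2 and 93.3 CPM (1.01, 0.9304 to 1.10), so that neither class differed beyond counting error. It was lower in SCD in neutrophils (74.9 and 40.1 CPM, 0.535, 0.499 to 0.574), monocytes (86.6 and 54.6 CPM, 0.630, 0.577 to 0.689) and pDCs (68.9 and 58.4 CPM, 0.849, 0.747 to 0.963). As with Gsr, the neutrophil ratio was closer to 1 within stages. Immature neutrophils were at 43.9 and 37.8 CPM (0.862, 0.731 to 1.02) and mature neutrophils at 97.1 and 63.9 CPM (0.658, 0.592 to 0.731). In the Il1b-rich and Il1b-poor sub-clusters the ratios were 0.890 (0.743 to 1.06) and 0.823 (0.595 to 1.17), with intervals that include 1.

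Non-classical monocytes, the patrolling cells marked by Ace and Cd300e, were singled out after their values had been seen. They numbered 376 in wild-type and 48 in SCD, under the 50 cells required for a ratio, and are given as levels. Prdx1 was at 987 CPM in wild-type and 4637 CPM in SCD, Gclm at 52.4 and 446 CPM, and Slc7a11 at 20.3 and 341 CPM. Txnrd1 was at 69.5 and 419 CPM, Srxn1 at 12.6 and 74.95 CPM, and Nqo1 at 4.47 and 51.1 CPM. Sqstm1 (135 and 391.8 CPM), Gsr (614 and 974 CPM), Gclc (48.7 and 102 CPM) and Cat (130 and 204 CPM) were also higher, so that all 10 genes were above wild-type with intervals that do not overlap. Among all genes of these cells at 20 CPM and 40 UMIs or more, a limit that 9 of the 10 passed, 4.41% were above wild-type in the same sense and 3.98% below it. Hmox1 was at 338 and 2371 CPM and Spic, a regulator of red pulp macrophages, at 34.5 and 337 CPM. Of their own markers, Cd300e (518 and 535 CPM), Treml4 (502 and 528 CPM) and Nr4a1 (741 and 692 CPM) were close over all cells. Ace was lower in SCD (1329 and 899 CPM). Spic is itself on the RPM marker list, which summed to 234 CPM in wild-type and 538 CPM in SCD. Of the 11 genes of that list, 1 was at 0 in wild-type and 8 in SCD, on group totals of 2462049 and 293528 UMIs. The neutrophil list summed to 985 CPM in wild-type and 5785 CPM in SCD, all 17 genes being higher, and its part in these levels was not tested.

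A few cells carried much of this. The 3 SCD cells with the most Prdx1 UMIs held 56.7% of the Prdx1, 58.8% of the Gclm, 53.7% of the Txnrd1 and 50 of the 100 Slc7a11 UMIs of the group, but 8.29% of all its UMIs. Of the non-classical markers they held 1.14% of the Ace, 1.48% of the Nr4a1, 0.637% of the Cd300e and 8.39% of the Treml4 UMIs. The top 3 wild-type cells held 0.672%, 0.493%, 0.471% and 1.70% of these, on 0.799% of all UMIs. The 3 SCD cells were thus low in Ace, Nr4a1 and Cd300e, and their identity was not tested. Without them Prdx1 was at 2188 CPM (2015 to 2372), Gclm at 201 CPM (151 to 262), Txnrd1 at 212 CPM (160 to 274) and Slc7a11 at 186 CPM (138 to 245) over 45 cells. Leaving out the top 3 wild-type cells in the same way gave 800 CPM for Prdx1, 41.4 CPM for Gclm, 61.0 CPM for Txnrd1 and 6.96 CPM for Slc7a11. Without the top cells the intervals of 8 of the 10 genes stayed above wild-type (background 4.20%, and 3.31% below), on a group of 45 SCD cells from 1 mouse. Those of Gclc (44.6 CPM, 36.6 to 53.8, against 70.6 CPM, 42.5 to 110) and Cat (131 CPM, 117 to 146, against 160 CPM, 116 to 215) overlapped. Most of what remained was again in a few cells, since the 12 of 48 SCD cells with the most Prdx1 UMIs held 89.2% of the Prdx1 and 87.8% of the Gclm UMIs, and the same share of wild-type cells (94 of 376) held 67.6% and 72.9%. Without these cells, a choice made after seeing the data, Prdx1 was at 481 CPM (448 to 516) in wild-type and 716 CPM (605 to 842) in SCD, and Gclm at 21.4 and 78.0 CPM. The intervals of 6 of the 10 genes (Gclm, Slc7a11, Prdx1, Gsr, Txnrd1 and Sqstm1) were then above wild-type (background 2.89%, and 2.64% below), and those of the other 4 overlapped. The difference in level of Prdx1 was thus smaller once the top cells of both libraries had been left out. Since cells were ranked by Prdx1, its share in the top cells is in part set by that choice. Wild-type held cells high in genes of this list too, since 3 of its 376 cells carried 66.0% of its Slc7a11 UMIs.

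**Figure D5:**
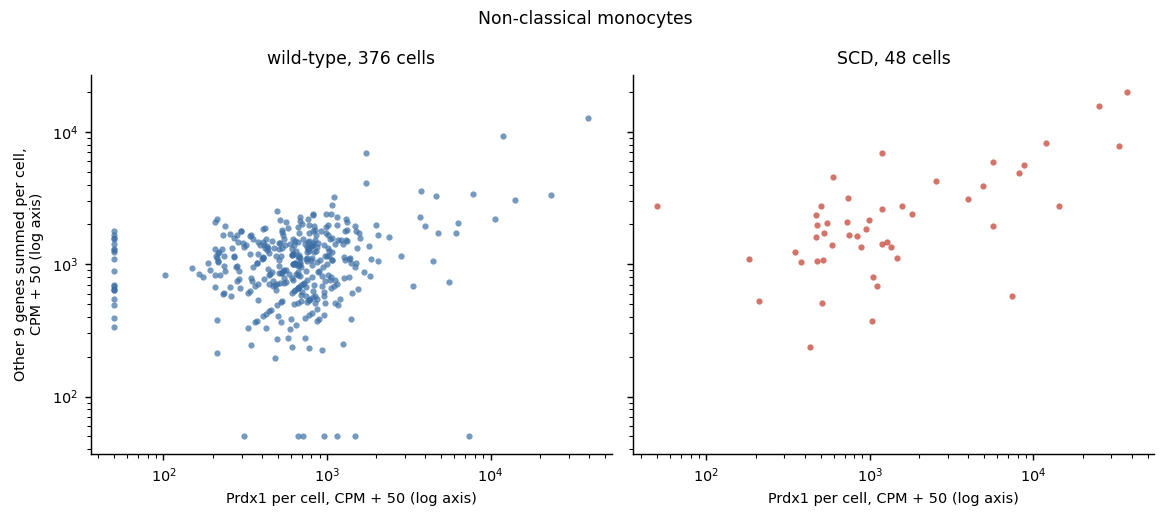
Each point is 1 non-classical monocyte, with its Prdx1 level on the x axis and the summed level of the other 9 genes on the y axis (both CPM per cell plus 50, log axes), 376 wild-type cells on the left and 48 SCD cells on the right. A main cloud lies around 1000 CPM on both axes in wild-type, and cells high on both axes are seen in both panels and make up more of the SCD panel.

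Erythroid cells stand apart from the other classes, because the summed level of the 4 globin genes was 478396 CPM in wild-type and 121579 CPM in SCD, and 65.5% of all genes were higher in SCD on this scale. Cell cycle genes summed to 1238 and 7374 CPM. Gclm was at 588 and 1007 CPM (1.71, 1.48 to 1.99), Gclc at 60.3 and 344 CPM (5.71, 3.83 to 8.83) and Srxn1 at 32.3 and 141 CPM (4.36, 2.48 to 8.16). Prdx1 was at 129 and 293 CPM (2.26, 1.67 to 3.10), Txnrd1 at 25.8 and 79.6 CPM (3.08, 1.60 to 6.42) and Gsr at 133 and 115 CPM (0.860, 0.595 to 1.24). Cat was at 599 and 268 CPM (0.448, 0.364 to 0.550) and Sqstm1 at 179 and 102 CPM (0.570, 0.398 to 0.811). Against the median ratio of 2.11 of all genes, Gclc and Srxn1 were above it and Gclm below it, and with median-of-ratios scaling Gclm was lower in SCD (0.815). With no upper limit on genes per cell, which left 247 and 688 erythroid cells, the ratio of Gclc was 0.952 and that of Prdx1 0.945. Removing called doublets gave 1.09 for Cat and 1.22 for Sqstm1, so the directions of Gclm, Gclc, Prdx1, Cat and Sqstm1 in erythroid cells rest on these settings. Txnrd1 (1.32 to 3.67) and Srxn1 (1.52 to 9.25) stayed above 1 under all 11 alternatives run. In the 289 SCD B cells Prdx1 was at 486 CPM, Cat at 155 CPM and Gclc at 88.0 CPM. The 21 wild-type B cells were too few for a ratio.

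The rest of the pathway was followed in a list of 72 further genes of glutathione, thioredoxin, NADPH, quinone, heme and proteasome function and of NRF2 regulation. In neutrophils 7 of the 43 genes above the count limit were higher in SCD (16.3%, background 8.85%) and 14 lower (32.6%, background 32.8%), with a median ratio of 0.916. Txnip, the inhibitor of thioredoxin, had the lowest ratio (729 and 135 CPM, 0.186) and the iron exporter Slc40a1 the next (576 and 147 CPM, 0.255), while Mgst2 (1.94) and Gstm1 (1.69), both glutathione transferases, had the highest. Monocytes had 5 higher (9.62%, background 6.64%) and 6 lower (11.5%, background 15.2%) of 52. In cDCs 9 of 48 were higher (18.8%, background 4.80%) and 5 lower (10.4%, background 13.1%), and in pDCs 8 of 47 were higher (17.0%, background 4.26%) and 2 lower (4.26%, background 4.00%). The median ratios were 1.11, 1.10 and 1.05. RPMs had 11 higher (22.9%, background 9.19%) and 5 lower (10.4%, background 15.3%) of 48 with a median of 1.13, led by Gstm1 (75.9 and 298 CPM, 3.92, 2.77 to 5.62) and Mgst1 (101 and 367 CPM, 3.64, 2.69 to 4.98). Mgst1 also had the highest ratio in cDCs (2.81) and pDCs (3.22), followed by Aldh2 (2.51) and Mgst2 (2.25). These genes are abundant in neutrophils, with Mgst1 at 574 CPM, Aldh2 at 729 CPM and Mgst2 at 198 CPM in SCD neutrophils. The neutrophil list was higher in SCD cDCs and pDCs, as given above, and its part in these ratios and shares was not tested. Ptgr1 (3.14) and Mgst3 (2.49) led in monocytes, where Txnip (0.392) and Hmox1 (0.420) were lowest. Sesn2 and Txnip were the lowest in RPMs (0.493 and 0.525) and pDCs (0.641 and 0.591), and Sesn2 and Gsto1 in cDCs (0.558 and 0.565). In erythroid cells 25 of 39 were higher (64.1%, background 65.5%) and 1 lower (2.56%, background 10.2%), with a median of 1.83, Psmd1 (6.41) and Sod2 (5.42) the highest and Txnip (0.610) and Nfe2l2 (0.699) the lowest.

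The transcript of NRF2 itself, Nfe2l2, was lower in SCD over all neutrophils, at 236 and 118 CPM (0.501), where 32.8% of all genes were lower. It was also lower over all monocytes, at 223 and 113 CPM (0.506), where 15.2% of all genes were. It was at 58.2 and 64.0 CPM in cDCs, 65.5 and 55.5 CPM in pDCs and 85.8 and 69.1 CPM in RPMs, none of them past the fold. Bach1 was at 139 and 58.2 CPM in neutrophils, 247 and 145 CPM in monocytes and 61.1 and 35.7 CPM in RPMs, lower in SCD in all 3. In RPMs 15.3% of all genes were lower. The stages and subsets of neutrophils and monocytes differed between the libraries, as given above. Levels of Nfe2l2 and Bach1 within them are not given here, and the part of this make-up in the ratios was not tested. Keap1 was past the fold in RPMs alone among these 5 classes, at 54.5 and 31.0 CPM (0.568). These are transcript levels, and the activity of NRF2 is set largely by protein turnover, which was not measured.

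The likeness of profiles was measured as Pearson's r of log2(CPM + 5) over 23 profiles of classes and subsets of both libraries, against 6193 genes. These profiles share libraries and differ in depth, and subsets are not independent of one another, so r is a description. Prdx1 was most like the aldo-keto reductases Akr1a1 (0.94) and Akr1b3 (0.92), Gsr most like Pi16 and Mtus1 (both 0.95), and Slc7a11 most like Asprv1 (0.93) and Fam32a (0.90). Gclm was most like the erythrocyte anion exchanger Slc4a1 (0.90) and March8 (0.90), Gclc most like Tor1aip2 (0.91) and Plaat3 (0.88), and Nqo1 most like the erythroid factor Tal1 (0.86) and Add1 (0.85). For Cat the closest were Gcn1 and Nrip1 (both 0.89), for Srxn1 Gucd1 (0.88) and Ccdc71l (0.87), for Sqstm1 Iscu and Pik3r1 (both 0.86), and for Txnrd1 Serpinb6a and Wwp1 (both 0.80). Among the 10 genes the highest r was between Nqo1 and Srxn1 (0.78) and the lowest between Gsr and Cat (-0.65). Gclc and Gclm, the subunits of 1 enzyme, had an r of 0.35.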

How the data were processed

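Spleen cells of 1 wild-type and 1 SCD mouse were sequenced with 10x Genomics 3′ chemistry, and groups were taken from the sample labels. The authors aligned the reads and counted UMIs with Cell Ranger 4.0.0 on GRCm38.p6, per the submitters' processing notes, which also list R 4.4, Seurat 3.2.3 and Scanpy 1.6.0. The deposited values are raw counts of UMIs per gene and cell, with no normalization. Depth was uneven, with median totals of 4884 and 8282 UMIs per kept cell, so that rare genes carry wide intervals. Since cells of 1 mouse are not replicates, no test was run.

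The study's filters were used, which ask for 500 to 5000 genes per cell and for mitochondrial and ribosomal shares below 15% and 30%. Cells were scaled with scran 1.30.0 (R 4.3.3), reduced to 30 components on 2000 variable genes and clustered together by Leiden (resolution 1) in scanpy 1.11.5 with leidenalg 0.10.2 and Python 3.11.15. The 10 genes and the wider pathway list were kept out of the genes used for clustering. Clusters were named from marker lists, and classes were clustered again into subsets at resolution 0.5. Scrublet called 4.71% of wild-type and 3.10% of SCD cells as doublets, which stayed in except in 1 alternative.

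CPM were computed from the UMIs of a class summed over its cells. Ratios carry the exact conditional (Clopper-Pearson) 95% interval and levels the exact Poisson interval. In the median over the 10 genes a count under 3 UMIs was put at 3. Ratios needed 50 cells in both libraries. Named were all 10 genes, the 2 highest and 2 lowest ratios of the pathway list per class, and the 2 genes most like each of the 10 in profile. The ratios were tested on simulated counts with known fold changes. Gene positions came from GENCODE M21, which held 26013 of the 26124 identifiers. The genes, lists, rules and alternatives were chosen with earlier results of these data known. Alternatives changed the filters on cells, the normalization, resolution and naming of clusters, the doublets, the scaling, the depth per cell, the pseudocount and the limit on low genes.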

Additional observations from a re-analysis of the deposited data

How the results depend on the processing

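No paired analysis was possible because there was a single library of either genotype. Of 89 alternative medians over the 10 genes, 82 stayed between the medians of the interval bounds reported. These bounds are not an interval of the median itself. They lie far apart where counts are low (0.759 to 1.69 in RPMs), so staying between them is a weak criterion. The monocyte median, 0.801, was 0.971 without sub-clusters led by genes of another class (chosen after seeing the data) and 0.943 over the genes at 20 CPM and 40 UMIs only. With each cell thinned to 1000 UMIs it was 1.37 in cDCs, 1.23 in pDCs and 1.13 in erythroid cells, where genes at or under 3 UMIs in both libraries sit at a floor that sets their ratio. Over the genes above it alone (chosen after seeing the data) it was 1.29, 1.07 and 1.65. The erythroid median, 1.99, turned to 0.949 with no upper limit on genes per cell and to 0.946 with median-of-ratios scaling, and the cause was not tested. Over all alternatives the medians ran from 0.923 to 1.27 in neutrophils, 0.739 to 0.971 in monocytes, 1.07 to 1.37 in cDCs, 0.964 to 1.23 in pDCs, 0.953 to 1.43 in RPMs and 0.946 to 2.37 in erythroid cells.

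Of 56 single ratios 27 were past 1.5-fold, 20 of these kept their direction under every alternative run and 7 also their side of the fold, namely Slc7a11 and Sqstm1 in neutrophils, Gclc in monocytes, Gclm in cDCs, Txnrd1 in pDCs and Srxn1 in RPMs and erythroid cells. Ratios past the fold that turned were Slc7a11 in thinned monocytes (1.004) and others in erythroid cells. These were Gclm under median-of-ratios scaling (0.815), and Gclc (0.952), Nqo1 (0.679) and Prdx1 (0.945) with no upper limit on genes. Sqstm1 turned without called doublets (1.22), with total count normalization (1.16), with the genes among the clustering genes (1.14) and as a mean over single cells (1.02), and Cat without called doublets (1.09). A limit of at least 1000 genes left no cells named as RPMs or erythroid, and separate clustering left no SCD erythroid cells, so these gave no value. Depth limits Nqo1 and Srxn1 most, and the intervals cover counting error only.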
